A study of Drosophila melanogaster with 6 samples.

Results

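The genes described here are 50 protein-coding genes of Drosophila melanogaster that the count table names only by a CG number, the running number of a gene model without a name, and whose level was lower in prepupal than in larval hemocytes. They were chosen by the measured values of all 6 libraries, so their difference between the stages is a description and carries no test. A gene was kept when its larval mean was at least 5 CPM (counts per 1000000 counts of the library, by the column total) and at least 4 times the prepupal mean plus 0.5 CPM, with every larval library above every prepupal library. Of 13395 genes in the table, 5571 were protein-coding genes with a CG number, 2079 of those reached the larval minimum, and 50 of the 2079 met the ratio. The requirement of no overlap between the stages removed none of the 50. No count of 0 occurred among them, and the lowest was 1 count in a prepupal and 49 counts in a larval library.

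The hemocytes of both groups carried Hml-GAL4.delta and UAS-GFP, were rinsed out of dissected animals and were sorted for GFP. The larval group came from wandering L3 larvae and the prepupal group from prepupae, with 3 libraries each. Polyadenylated RNA was read as single reads of 50 bp without strand information, and the libraries held 19228352 to 25958543 counts. The marker that sorted the cells is itself driven by a gene that changed, since Hml gave 5473, 3356 and 7035 CPM in larval and 230, 76.6 and 110 CPM in prepupal libraries, so the sorted fraction need not be the same share of the hemocytes at both stages. In sorted bulk cells, fewer cells of a type and less RNA per cell cannot be told apart. The methods state that RNA was isolated in triplicate, and a general statement for the study has experiments done on different flies or cells and days, but no source says so of these libraries in particular. Every p-value below therefore measures the spread between these libraries, which may in part be technical.

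Hemocytes circulate in the open blood system of the fly. Plasmatocytes, the most common kind, are macrophages that engulf debris and secrete matrix, while crystal cells carry the enzymes of melanization and lamellocytes enclose parasites. At the passage from larva to pupa, which pulses of the steroid hormone ecdysone drive, hemocytes leave their resting places, spread and take up the remains of larval tissue. A CG number is no function: it says only that the annotation behind the table had no name for the gene, and several of the 50 have been named since.

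Of the 8 plasmatocyte markers, 7 were lower and 1, the receptor gene crq, was higher in prepupae (edgeR quasi-likelihood test over 7914 genes, FDR below 0.05), and their summed level went from 17240 to 27540 CPM in larvae to 3805 to 6211 CPM in prepupae. All 4 crystal cell markers were lower (2143 to 3549 against 507.5 to 1361 CPM summed). Of 4 tested lamellocyte markers 1 was higher and 1 lower (1047 to 1482 against 475.5 to 594.1 CPM). The lower one was cher, from 827.3 to 17.2 CPM on average, and the higher one PPO3, from 24.8 to 52.9 CPM. With means of 467.8 CPM in larvae and 481.1 CPM in prepupae, mys was not called. Markers of other tissues stayed low in both stages, with summed larval and prepupal ranges of 29.5 to 37.6 and 25.02 to 33.4 CPM for 6 fat body genes (2 higher, 1 lower), 5.93 to 9.26 and 5.36 to 8.84 CPM for 5 salivary gland genes (0 called), 11.8 to 15.8 and 10.9 to 15.5 CPM for 6 muscle genes (0 called), 4.51 to 7.65 and 8.32 to 15.3 CPM for 4 midgut genes (1 higher), and 2.90 to 6.17 and 2.35 to 3.07 CPM for 4 neuron genes (0 called). The salivary gland and muscle genes were all tested, but only 5 of the fat body, 2 of the midgut and 1 of the neuron genes. Of 4 Malpighian tubule genes, Uro, Irk2 and Irk3 were at or near 0 and were not tested. Best1 was called, with a mean of 35.1 CPM in larvae and 10.6 CPM in prepupae (log2 fold change -1.53, FDR = 2.6e-05). The part of the plasmatocyte and crystal cell genes' lower level in the values of the 50 genes was not tested.

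"Shut down" described only some of the 50. The larval means ran from 5.29 to 425 CPM with a median of 24.8 CPM, and the prepupal means from 0.119 to 84.8 CPM with a median of 2.24 CPM. In prepupae, 16 genes had a mean below 1 CPM, 11 of them in every library, while 16 lay between 1 and 5 CPM, 18 were at 5 CPM or more and 13 at 10 CPM or more. The ratio of the rule ran from 4.09 to 116 with a median of 6.24. It was at least 8 for 16 genes, at least 10 for 11 genes and at least 16 for 5 genes. Most of the 50 were thus lower but still read, and a minority was close to the lowest counts that these libraries can show.

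**Figure D1:**
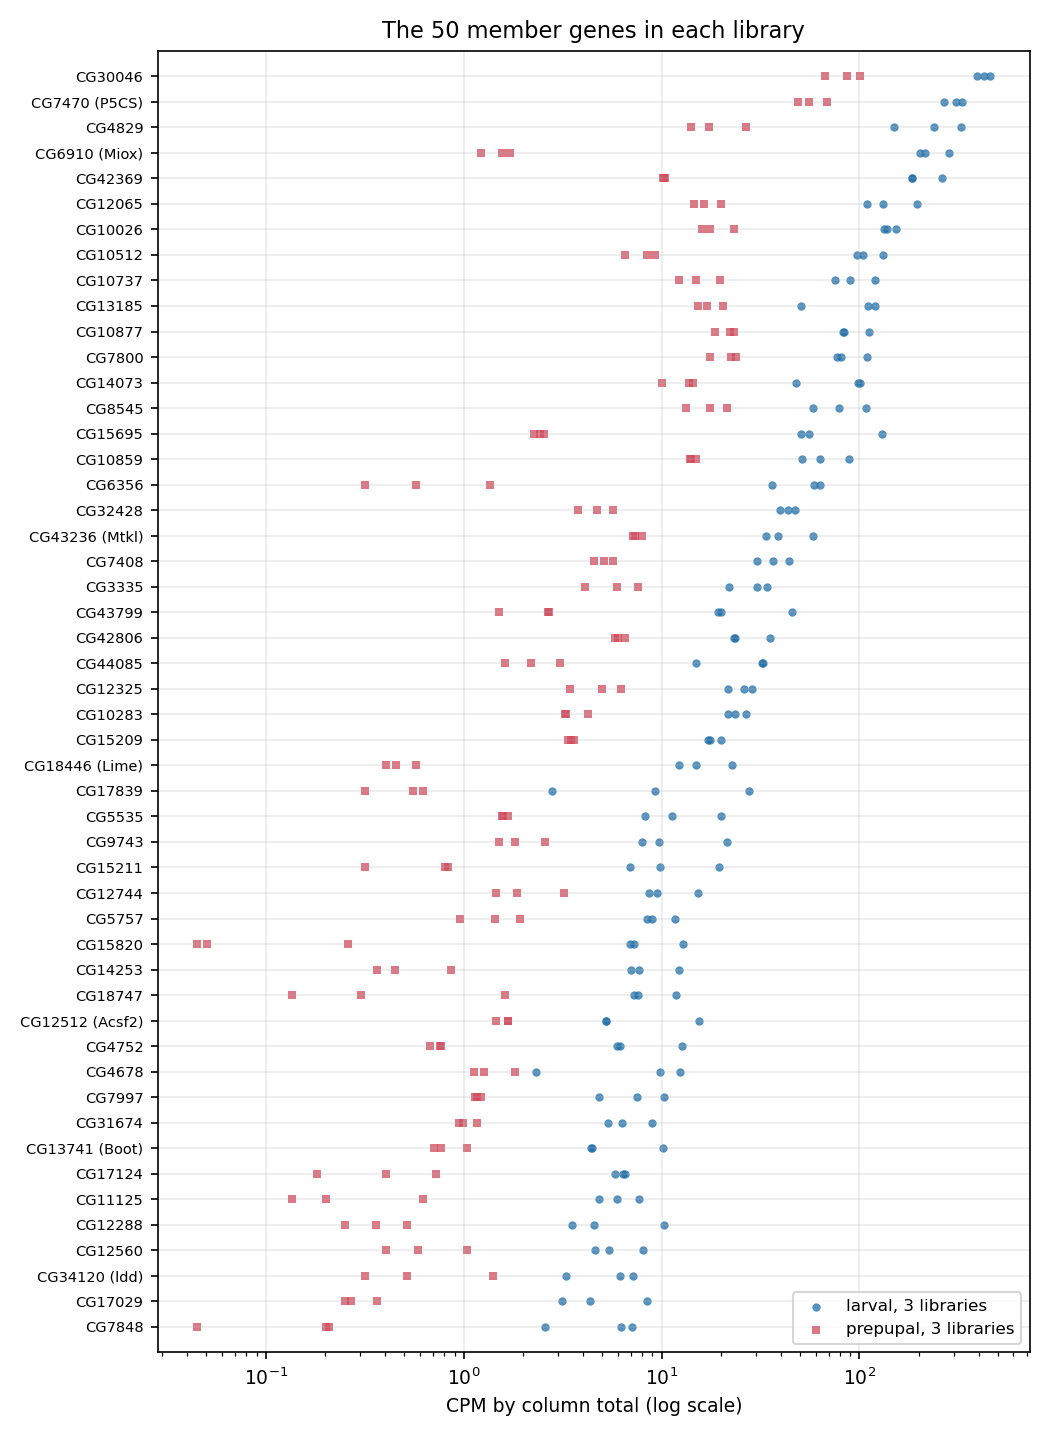
Each row is 1 of the 50 genes, ordered by larval mean, with its CPM in the 3 larval libraries (blue circles) and the 3 prepupal libraries (red squares) on a log axis; symbols given by a later Ensembl release stand in brackets. No row overlaps between the stages, which the rule required, and the prepupal means run from 0.119 CPM for CG15820 to 84.8 CPM for CG30046.

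The fit over all genes gives the same values another scale. Of 7914 genes tested, 4264 were called, of which 2159 were lower in prepupae (27.3%). All 50 genes passed the filter on low counts and 50 of 50 were among those called lower, which follows from how they were selected and says nothing further. Their log2 fold changes, prepupal over larval after TMM scaling, ran from -7.08 to -1.86 with a median of -2.70, against a median of -0.026 over all tested genes, and their standard errors ran from 0.142 to 0.786. The choice of scaling changed which genes met the rule. With CPM scaled by the TMM factors, 36 of the 50 genes still met the rule and none was added, and with DESeq2 size factors 35 did.

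Across the stage means of all CG-numbered genes, the 50 lie at the lower edge of the cloud, where the rule places them. Their larval means end at 425 CPM, so none of them is among the CG-numbered genes with the highest larval means. The values just inside the ratio threshold were 4.09 for CG7800, 4.13 for CG42806 and 4.13 for CG12512, and those just outside it were 3.997 for CG14990, 3.996 for CG4554 and 3.94 for CG9902. The edge is therefore a line through a continuous spread and not a gap. At the level threshold, CG7848 (5.29 CPM), CG17029 (5.30 CPM) and CG34120 (5.55 CPM) were just inside, while CG9360 with 4.985 CPM was just outside at a ratio of 7.44.

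**Figure D2:**
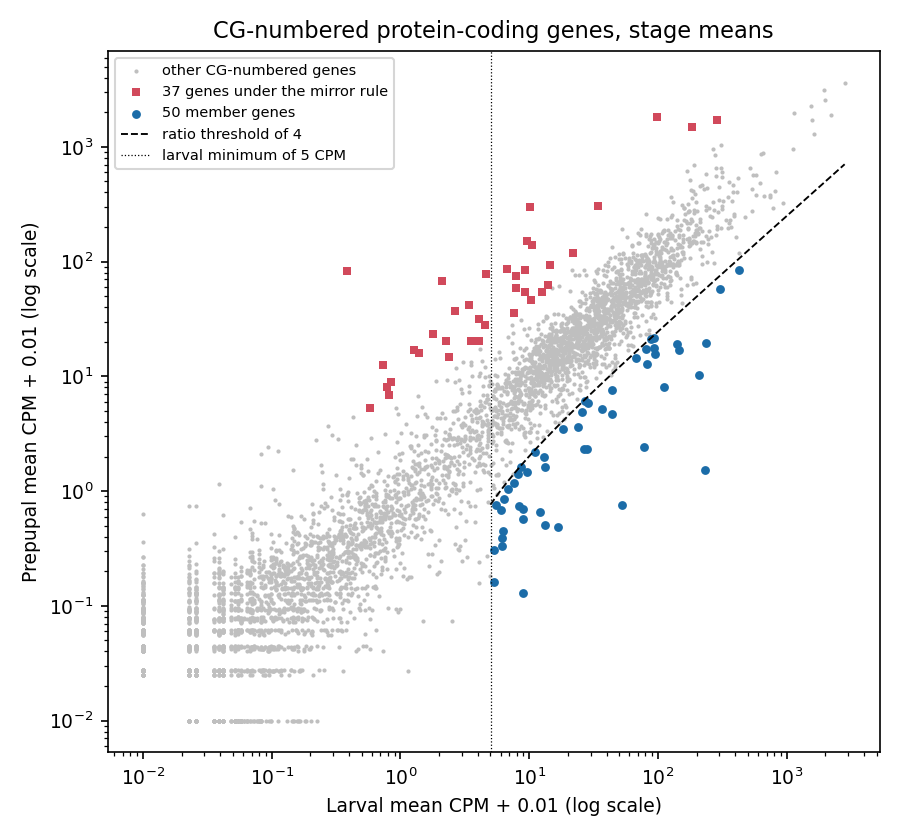
Larval (x) against prepupal (y) mean CPM, with 0.01 added, of all CG-numbered protein-coding genes on log axes, with the 50 genes in blue and, in red, 37 genes that met the mirror of the rule. The dashed line is the ratio threshold of 4 and the dotted line the larval minimum of 5 CPM; the blue points fill the space below the line, with several on it and CG6910 farthest from it at a ratio of 116.

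The reference annotations give 12 of the 50 genes a name with a known role. A later Ensembl release names 7 of the 50, and RefSeq synonyms give 5 more. The other 38 are described by number and values only, also CG14073, for which RefSeq gives the synonym Nirvana and no role was taken.

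CG6910 is now Miox, myo-inositol oxygenase, which opens the ring of inositol to form glucuronate (FBgn0036262, chromosome 3L, 12184984 to 12187860, plus strand). Its larval libraries held 214, 203 and 282 CPM, a mean of 233 ± 42.7 CPM (SD, n = 3), and its prepupal libraries 1.72, 1.22 and 1.57 CPM, a mean of 1.501 ± 0.254 CPM (SD, n = 3). The smallest larval value was 118 times the largest prepupal value, and the log2 fold change of -7.08 (standard error 0.192) was the lowest of all 7914 genes tested. CG17029 has the RefSeq synonym IMP, taken here to stand for inositol monophosphatase, the enzyme class that frees inositol from its phosphate. CG17029 was read far less, with 4.35, 3.14 and 8.40 CPM in larvae and 0.364, 0.271 and 0.253 CPM in prepupae. Both were low in every prepupal library, CG17029 at only a few counts.

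Named genes of inositol and sugar acid metabolism did not all move this way. Of 5 tested, 2 were lower, 1 was higher and 2 were not called, with a median log2 fold change of -0.48. Inos, which makes inositol phosphate from glucose 6-phosphate, gave 2233, 2129 and 2223 CPM in larvae against 75.9, 47.9 and 62.2 CPM in prepupae (log2 fold change -4.95, FDR = 3.6e-07). Aldh, an aldehyde dehydrogenase, gave 150, 171 and 295 against 3.48, 3.08 and 2.98 CPM (-5.80, FDR = 1e-06). The level of sgl, which makes UDP-glucuronate from UDP-glucose, was higher in prepupae, from 184 to 329 CPM on average (1.03, FDR = 0.00015). Mipp1 (-0.48, FDR = 0.37) and Mipp2 (0.18, FDR = 0.46), phosphatases of inositol polyphosphates, did not pass the test.

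CG7470 is now P5CS, the enzyme that turns glutamate into the precursor of proline (FBgn0037146, chromosome 3L, 21972002 to 21984606, plus strand). Its larval mean CPM was second only to that of CG30046, with 329, 309 and 267 CPM in larvae and 49.2, 55.5 and 68.9 CPM in prepupae (log2 fold change -2.19, standard error 0.149). Per kb of exon, its prepupal level of 12.4 CPM was above the median larval level of the 50 genes, 8.54 CPM. CG12512 is now Acsf2, an acyl-CoA synthetase, which activates fatty acids. It had 5.24, 5.23 and 15.5 CPM in larvae and 1.46, 1.67 and 1.67 CPM in prepupae, so its ratio of 4.13 rested on larval replicate 3, and it did not meet the rule without that library. Without larval replicate 3 its log2 fold change was -1.52 in place of -2.21.

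CG6356 has the RefSeq synonyms Slc22a16 and OCTN2, after mammalian carriers of carnitine (FBgn0039178, chromosome 3R, 24283955 to 24288617, plus strand). It had the second-largest ratio, 42.1, with 62.9, 36.2 and 59.1 CPM in larvae and 0.572, 0.317 and 1.36 CPM in prepupae. Replicate 3 was the highest of the prepupal libraries, and without it the log2 fold change was -6.67 in place of -5.95. Among carriers of the same SLC22 family that have gene names, 4 of 5 were in the table and 3 were tested. Orct2 was lower, with 17.7, 13.8 and 31.1 CPM in larvae and 1.72, 1.04 and 1.77 CPM in prepupae (-3.59, FDR = 3.3e-05). Orct was higher, from 319 to 426 CPM on average (0.61, FDR = 0.0095), and CarT was not called (-0.11, FDR = 0.86).

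CG34120 is now ldd, an ABC transporter of subfamily A. Its larval values of 6.20, 3.28 and 7.17 CPM and prepupal values of 0.520, 0.317 and 1.42 CPM come from a long transcript set of 7569 exonic bp, so that per kb of exon it was the lowest of the 50 in larvae, at 0.733 CPM per kb.

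RefSeq synonyms place 3 genes with RNA and the nucleolus. CG8545 is the counterpart of yeast NOP2, a methyltransferase of ribosomal RNA, with 78.7, 58.0 and 108 CPM in larvae and 13.3, 17.6 and 21.4 CPM in prepupae. CG3335, named RBD-1 after a worm protein needed to process ribosomal RNA, had 30.3, 21.9 and 34.0 CPM in larvae and 5.93, 4.12 and 7.58 CPM in prepupae. CG12288, the counterpart of the human RNA-binding protein RBM34, had 4.58, 3.52 and 10.2 CPM in larvae and 0.520, 0.362 and 0.253 CPM in prepupae. Prepupal replicate 3 was the highest for CG8545 and CG3335 and the lowest for CG12288. For the first 2 genes the log2 fold changes of -2.02 and -2.10 were among the smallest of the 50, against -3.78 for CG12288.

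Of the genes named for immunity, CG18446 is now Lime, a zinc finger protein whose name stands for linking immunity and metabolism (FBgn0033458, chromosome 2R, 9871470 to 9873646, plus strand). It had 14.9, 12.3 and 22.8 CPM in larvae and 0.572, 0.407 and 0.455 CPM in prepupae, a log2 fold change of -4.91 (standard error 0.307). CG43236 is now Mtkl, a small peptide gene that resembles the antifungal peptide Metchnikowin. Its 33.8, 58.1 and 38.9 CPM in larvae and 8.01, 7.37 and 7.18 CPM in prepupae made it the only one of these 12 genes with its highest larval value in replicate 2. With 398 exonic bp and 50 codons it was the shortest of the 50, and per kb it ranked near the top in larvae, at 110 CPM per kb.

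CG13741 is now Boot, short for bootlegger, which exports piRNA precursors from the nucleus in the ovary. It had 4.39, 4.47 and 10.2 CPM in larvae and 1.04, 0.769 and 0.707 CPM in prepupae. Of its 1933 exonic bp, 388 lie in exons of Nadk2 on the same strand, a gene of 296 CPM in larvae and 341 CPM in prepupae whose direction was the opposite (log2 fold change 0.40).

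Among genes known by number only, CG30046 had the highest larval mean CPM of the 50, with 457, 392 and 425 CPM in larvae and 101.1, 67.0 and 86.4 CPM in prepupae. CG4829 had 237, 149 and 326 CPM in larvae and 26.7, 14.1 and 17.4 CPM in prepupae. CG42369, a gene of a single exonic block, had 184, 185 and 261 CPM in larvae and 10.3, 10.2 and 10.4 CPM in prepupae. The 3 genes differ in shape: CG30046 was even in larvae and the least reduced of them, CG4829 varied by a factor of 2.19 among larval libraries, and CG42369 was nearly equal in the 3 prepupal libraries.

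CG12065 had 131, 110 and 194 CPM in larvae and 16.4, 14.7 and 19.9 CPM in prepupae. CG10026 had 138, 153 and 132 CPM against 17.6, 16.1 and 23.1 CPM, with replicate 3 the lowest larval library. CG10512 had 104, 97.0 and 131 CPM against 8.43, 6.51 and 9.30 CPM. All 3 genes were still read in every prepupal library, and the rule required that none overlap between the stages.

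CG10737 had 89.2, 75.5 and 120 CPM in larvae and 19.8, 12.3 and 14.96 CPM in prepupae. CG13185, the longest of the 50 with 16988 exonic bp and 5526 codons, had 110, 50.5 and 120 CPM against 16.9, 15.3 and 20.6 CPM. Its larval replicate 2 was far below the other larval libraries. CG10877 had 83.8, 82.9 and 112 CPM against 22.3, 18.6 and 23.3 CPM, and CG7800 had 80.6, 77.4 and 109 CPM against 17.6, 23.8 and 22.5 CPM. The last 2 genes had the smallest log2 fold changes of the 50, -1.92 and -1.86.

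On a scale per length, the order among the highest larval genes changed. CG42369 came first with 150 CPM per kb of exon, followed by Miox with 145, CG30046 with 142 and Mtkl with 110 CPM per kb. In prepupae the same scale gave 7.38 CPM per kb for CG42369, 0.933 for Miox and 28.4 for CG30046. The 5 genes with the highest larval means held 46.2% of the summed larval CPM of the 50.

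Large ratios were also found at lower levels. CG15695 had 55.5, 50.4 and 130 CPM in larvae and 2.55, 2.26 and 2.42 CPM in prepupae, a ratio of 27.0. CG43799 had 19.95, 19.4 and 45.8 CPM against 2.70, 2.67 and 1.52 CPM, and CG15211 had 9.86, 6.94 and 19.5 CPM against 0.832, 0.317 and 0.808 CPM. In each of the 3, larval replicate 3 stood far above both other larval libraries, and their log2 fold changes without it were -4.26, -2.90 and -3.51 in place of -4.81, -3.40 and -4.01.

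CG15820 came closest to absence in prepupae, with 0.260, 0.0452 and 0.0505 CPM after 6.90, 7.22 and 12.9 CPM in larvae. Its lowest prepupal libraries held 1 count each, so its log2 fold change, -6.02 (standard error 0.519), was -7.21 without prepupal replicate 1. CG44085 had 32.6, 14.9 and 32.2 CPM against 2.18, 1.63 and 3.08 CPM. CG17839 had the widest larval spread of the 50, a coefficient of variation of 97.6%, with 9.25, 2.80 and 27.7 CPM in larvae against 0.624, 0.317 and 0.556 CPM in prepupae. Its log2 fold change of -4.51 (standard error 0.786) was -3.40 without larval replicate 3.

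A single prepupal library also decided values elsewhere. CG18747 had 1.61, 0.136 and 0.303 CPM in prepupae after 7.24, 7.61 and 11.8 CPM in larvae, and without prepupal replicate 1 its log2 fold change of -3.52 was -5.13. In all, 7 of the 50 genes had under 30 prepupal counts over the 3 libraries together and 14 had under 10 counts in at least 1 of them, so small prepupal levels here carry wide counting error.

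The remaining 16 genes, none of them with a role in the references, are CG14073, CG10859, CG32428, CG7408, CG12325, CG10283, CG15209, CG5535, CG9743, CG5757, CG14253, CG4752, CG7997, CG31674, CG17124 and CG12560. Their larval means ran from 6.02 CPM for CG12560 to 82.2 CPM for CG14073. Ratios ran from 4.48 for CG31674 to 8.46 for CG14253, and log2 fold changes from -3.79 for CG14253 to -2.04 for CG10859.

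Within the larval stage many of the 50 genes had the same order of libraries. The rule used these same larval values, so this order is not independent of how the genes were chosen. Replicate 3 was the highest larval library for 41 of them (82.0%) and replicate 2 the lowest for 35 (70.0%), and the order 3, 1, 2 from high to low held for 31. The median of replicate 3 over replicate 2 was 1.70 among the 50 and 1.01 among 2029 other CG-numbered genes with a larval mean of at least 5 CPM, of which 39.9% had replicate 3 highest. Genes with another symbol that met the same rule, 175 in number, had replicate 3 highest in 86.3%. The summed plasmatocyte markers followed the same order, with 24830, 17240 and 27540 CPM in larval replicates 1, 2 and 3. So did the crystal cell (2592, 2143 and 3549 CPM), Malpighian tubule (35.17, 31.13 and 39.92 CPM) and neuron markers (4.815, 2.899 and 6.171 CPM). The named inositol and sugar acid genes did too (2562, 2484 and 2726 CPM). Lamellocyte markers had replicate 1 highest (1482, 1047 and 1435 CPM). In fat body, salivary gland and muscle markers replicate 1 was lowest and replicate 3 highest, and in midgut markers replicate 2 was highest. The part of these genes in the larval spread of the 50 was not tested.

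Summed over the 50 genes, the larval libraries held 2978, 2546 and 3602 CPM and the prepupal libraries 421.8, 358.5 and 442.1 CPM. In prepupae, replicate 1 was highest for 25 genes, replicate 3 for 20 and replicate 2 for 5. The coefficient of variation among larval libraries had a median of 29.96% for the 50, 30.1% for the 175 other genes under the rule and 9.90% for the other CG-numbered genes. In prepupae the medians were 20.2%, 23.8% and 11.4%. The rule used these same values, so the spreads of the 50 and the 175 are not independent of the choice. Only 8 of the 50 varied by less than 15% in larvae, among them CG17124 (5.90%), CG10026 (7.55%), CG30046 (7.61%), CG15209 (8.15%) and CG32428 (8.86%).

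**Figure D3:**
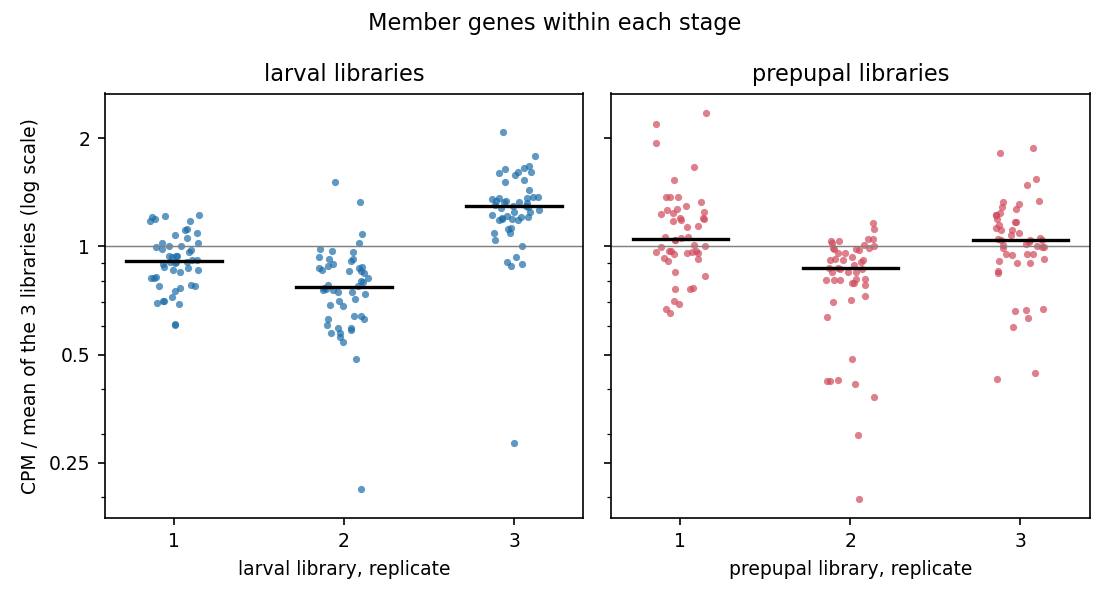
Each point is 1 of the 50 genes in 1 library, as its CPM divided by the mean of the 3 libraries of its stage (log axis), with black lines at the medians. Larval replicate 3 lies above 1 for most genes and was the highest library for 41, while larval replicate 2 was the lowest for 35; prepupal replicate 2 was also the lowest for 29.

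The order was not shared by all. Replicate 1 was the highest larval library for 6 genes and replicate 2 for 3. CG4678 had 9.86, 12.4 and 2.33 CPM in larvae, so that replicate 3 was its lowest library, and 1.82, 1.13 and 1.26 CPM in prepupae. Its smallest larval value was only 1.28 times its largest prepupal value, the smallest such margin of the 50. The margin was at least 4 for 32 genes and at least 10 for 8.

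Larval replicate 3 also carried part of the selection. Without it the rule returned 35 genes, all of them among the 50, and without larval replicate 2 it returned 69, of which 49 were among the 50. The genes lost without larval replicate 3 were CG10859, CG10877, CG12288, CG12512, CG12744, CG13741, CG17029, CG31674, CG34120, CG42806, CG7800, CG7848, CG7997, CG8545 and CG9743. Leaving out the other libraries gave 49 to 60 genes. In all, 33 of the 50 met the rule with every library left out in turn, and 17 failed it at least once.

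Both stages carry libraries numbered 1 to 3, which allowed genes to be chosen on 2 pairs and read in the third. Chosen without pair 1, 2 or 3, the rule returned 57, 62 and 38 genes, of which 46, 49 and 36 were among the 50. In the pair left out, the larval value was above the prepupal value for all 57, all 62 and all 38. The ratio of at least 4 held there for 39, 37 and 34 of them, with medians of 4.72, 4.26 and 8.36. The lowest ratios were 1.40 for CG15784 in pair 1, 0.883 for CG14545 in pair 2, where the added 0.5 CPM brings it below 1, and 1.32 for CG4678 in pair 3. For the genes also among the 50, a larval value above the prepupal value follows from the full rule. No share over all CG-numbered genes was set beside these counts, so nothing further is read from them. The medians are over different sets of genes, so sizes are not compared between pairs.

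**Figure D4:**
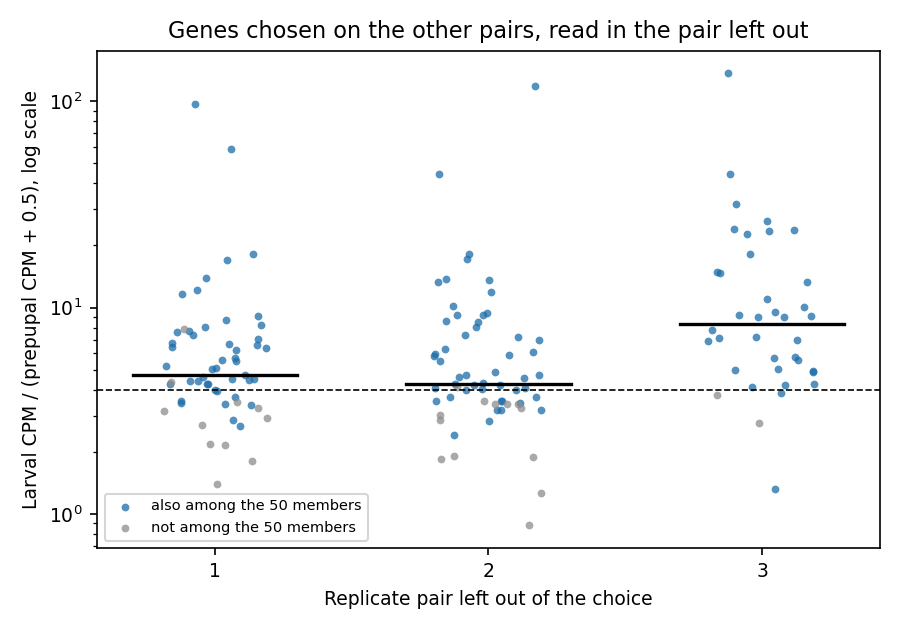
For genes chosen without the replicate pair on the x axis, the y axis gives the ratio of larval CPM to prepupal CPM plus 0.5 in that pair (log axis); blue points are among the 50 genes, grey points are not, black lines are medians and the dashed line is the threshold of 4. The medians are 4.72, 4.26 and 8.36, with 39 of 57, 37 of 62 and 34 of 38 genes at or above the threshold. Of these genes 46, 49 and 36 are among the 50, where the full rule sets the direction. No share over all CG-numbered genes was set beside the counts.

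The 50 genes were not the shortest or simplest gene models of the table. Their median exonic length was 2193 bp. It was 1805 bp for 2020 other CG-numbered genes with a larval mean of at least 5 CPM, a set not matched on level. For the 173 of 175 other-symbol genes under the same rule that had a length, it was 3889 bp. Median counts of exonic blocks were 5, 3 and 7, and median longest coding sequences were 466.5, 403 and 780 codons. The 37 CG-numbered genes of the mirror rule, higher in prepupae by the same thresholds, had a median of 1725 bp and 3 blocks. The quartiles of the 50 genes, 1458 and 2988 bp, overlap those of the other CG-numbered genes, 1190 and 2844 bp.

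Fold changes were also read from a fit that takes out a trend with exonic length. The correction of a gene depends on its length, so the changes below describe the correction. The part of transcript length in the fold changes was not tested. In a fit corrected for the length trend within each library, the median log2 fold change of the 50 was -2.66 in place of -2.70, and 39 in place of 47 had a value of -2 or lower. The change was toward 0 for 33 genes and away from 0 for 17. It was largest for the longest gene, CG13185 (-2.21 to -1.41), followed by CG44085 (-3.34 to -2.62), while the shortest, Mtkl, went from -2.34 to -2.88.

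**Figure D5:**
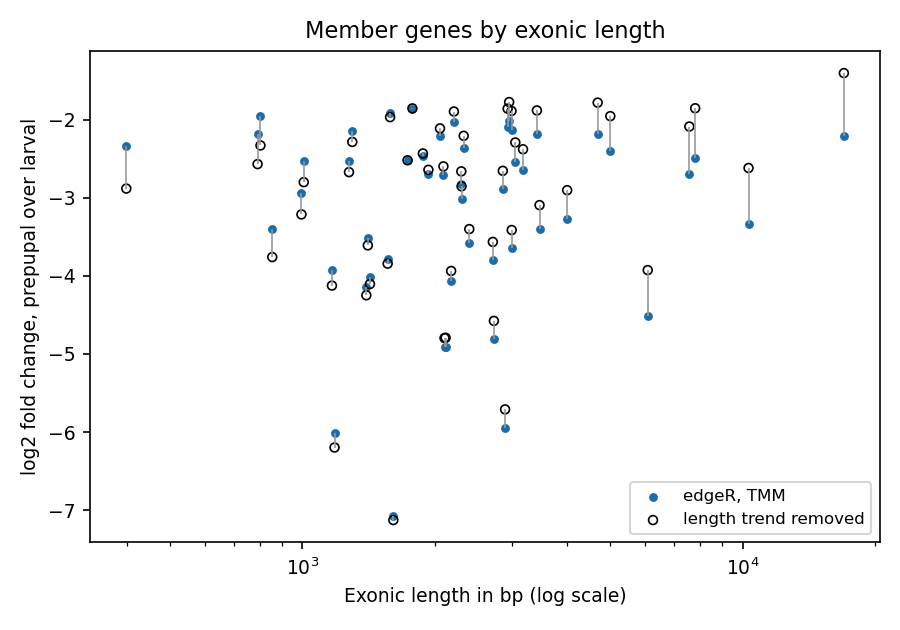
Log2 fold change, prepupal over larval, of each of the 50 genes against its exonic length in bp (log axis), with filled points for the edgeR fit with TMM factors and open circles for the fit with each library's length trend removed. Grey lines join the values of a gene; they point up for most long genes, such as CG13185 from -2.21 to -1.41, and down for short ones, such as Mtkl from -2.34 to -2.88.

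By chromosome arm, 15 of the 50 genes (30%) lie on 2R, 11 on 2L, 11 on 3L, 7 on 3R and 6 on X. The other CG-numbered genes with a larval mean of at least 5 CPM had 19.1% on 2R, 25.3% on 3R and 18.6% on X. Despite the count on 2R the genes were scattered. Only Lime and CG12744 are neighbours in the annotation, on the plus strand with 1242 bp between them. CG12744 had 9.44, 8.65 and 15.3 CPM in larvae and 1.46, 1.85 and 3.23 CPM in prepupae, so the neighbours share a direction but not a size, -4.91 for Lime and -2.15 for CG12744.

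Of 97 distinct neighbours that are not among the 50, 52 were tested, 21 were called lower (40.4%, beside 27.3% of all tested genes) and 10 higher, with a median log2 fold change of -0.45. The difference between these shares was not tested. Among the 97 neighbours, 2 met the same rule. In the whole table, 50 of 5571 CG-numbered and 175 of 6619 other protein-coding genes met it, and nothing further is read from the 2 neighbours. Inos lies 4926 bp from CG11125, which had 4.82, 5.99 and 7.69 CPM in larvae and 0.624, 0.136 and 0.202 CPM in prepupae. The other, jtb, lies 668 bp from CG7848 and went from 13.7 to 0.519 CPM on average (log2 fold change -4.50), beside 6.24, 2.57 and 7.07 CPM in larvae and 0.208, 0.0452 and 0.202 CPM in prepupae for CG7848.

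Exons of 17 of the 50 genes share bases with another annotated gene, 13 on the opposite and 5 on the same strand. Reads within the shared bases cannot be assigned, since the libraries keep no strand or the strand is the same. The same-strand partners of Miox (75 bp shared) and Lime (54 bp shared) are transposable elements, which are not in the table. The largest shared stretch is that of CG14253, 1886 of 2708 exonic bp, with CG46313, which is not in the table. CG42806 shares 283 of its 803 exonic bp with CtsL1, a lysosomal protease gene of 1026 CPM in larvae and 404 CPM in prepupae that was itself lower (log2 fold change -1.14). CG42806 had 23.5, 23.1 and 35.4 CPM against 6.50, 6.06 and 5.81 CPM, and how much of this was read from CtsL1, which had 7560 to 25533 counts per library, cannot be told apart here. Partners with far more counts than the gene itself were CG31075, on the opposite strand, with 83 bp shared with CG14253, 32953 to 78849 counts per library and the opposite direction (log2 fold change 0.86), and Sec24AB, with 11 bp shared with CG12744 and 1961 to 3942 counts. CG14253 had as few as 7 counts in a library and CG12744 as few as 28. Some partners had few counts: CG32669 had at most 19 counts beside CG15209, fa2h at most 2 beside CG11125 and alka at most 3 beside CG12325.

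Compared with genes that carry a symbol, a CG number went with a smaller share of large decreases and a larger share of large increases. The rule was met by 50 of 2079 CG-numbered genes (2.41%) and by 175 of 4218 genes with another symbol (4.15%), while its mirror was met by 37 of 2007 (1.84%) and 38 of 4032 (0.943%). These shares are descriptions of the same contrast that chose the genes. Named regulators of the ecdysone response, 11 of 12 tested, went both ways, with 3 higher and 5 lower. The receptor gene EcR gave 164, 83.2 and 169 CPM in larvae and 6.45, 5.34 and 6.67 CPM in prepupae (log2 fold change -4.29, FDR = 3.9e-06), and Eip93F, a regulator of the later pupal response, was higher (3.64, FDR = 2.3e-05).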

How the data were processed

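The deposited values are raw counts, not normalized by the authors, in 1 table with a column for each library. Per the methods and the submitters' processing notes, reads were demultiplexed with bcl2fastq (version 2.20 in the notes, an older one in the methods), trimmed with trimmomatic, aligned with STAR to dm6 (BDGP6) with an Ensembl annotation and counted with featureCounts. The sources used here give no settings of featureCounts, and the libraries keep no strand, so reads of overlapping genes could be lost or shared. The methods name TRIzol and the labels a phenol and chloroform extraction. Libraries of total hemocytes were not analysed here.

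All genes were fitted with edgeR 4.0.16 under R 4.3.3 (scaling by TMM, minimum count of 10 in filterByExpr, quasi-likelihood test, FDR by Benjamini-Hochberg, threshold 0.05). Standard errors are the size of the log2 fold change over the square root of F. Exonic lengths, symbols and coordinates came from Ensembl release 115 (13332 of 13395 genes found, 99.7% of these at identical coordinates), and names also from RefSeq (50 of 50 matched). The length trend was a loess of log2 CPM (span 0.5, prior count 2). The script was tested on simulated data.

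Members and lists were chosen with earlier results of these data known. Genes were named by rule: the 12 highest by larval mean, the 12 largest ratios, 3 on each side of the ratio threshold and neighbouring members. Members to which the reference annotations give a name with a known role were also named by rule. Others were named after their values were seen. Across genes, libraries with the same number deviated together from the means of their stages, with correlations of 0.277, 0.300 and 0.102, each above 0.1, so the replicate block was run as an alternative. Alternatives were DESeq2 1.42.0, other scalings, thresholds and filters, the block, the length trend and leaving out each library.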

Additional observations from a re-analysis of the deposited data

How the results depend on the processing

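All 50 genes were called lower in each of 12 other fits, with log2 fold changes of -7.28 to -1.41. The rule, applied to the same libraries, had fixed their direction, so this is no sign of stability. With the replicate number as a block, 4736 of all tested genes were called in place of 4264, 50 of the 50 stayed called, and their median log2 fold change was -2.73. With each library left out, the count over all genes was 3251 to 4552, the median log2 fold change of the 50 was -2.89 to -2.62, the number of genes under the rule was 35 to 69 and the median ratio of the original 50 was 5.53 to 6.93. Requiring a 2-fold change as well left 1580 genes called. The number under the rule was 33 with a larval minimum of 10 CPM, 101 with a ratio of 3 and 16 with a ratio of 8, as these thresholds themselves set. The median ratio in pairs 1, 2 and 3 when left out was 4.72, 4.26 and 8.36. These medians are over different sets of genes, most of them among the 50, so nothing further is read from them. Of 400 recomputed ratios of single genes, 33 moved by more than the spread between libraries. Promoter motifs and protein identity between the genes were not run, since no sequences were used here. Depth limits genes with few prepupal counts.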
